A study of Bos taurus with 12 samples.

Results

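Expression of 10 genes tied to DNA methylation and demethylation was followed in bovine blastocysts of 4 origins. The genes were the maintenance genes DNMT1 and UHRF1, the de novo methyltransferases DNMT3A and DNMT3B, the oxidation and excision genes TET1, TET2, TET3 and TDG, the NuRD complex subunit MBD3 and the imprint factor ZFP57. A gene was taken from a probe set that carried its symbol and no other, and where a symbol had several probe sets the one with the highest mean over the 12 arrays was used. The 10 genes matched 12 of the 26773 probe sets on the array, since TET3 and MBD3 had 2 each, and all 10 passed the filter on low values. The array covers 18010 gene symbols in this way.

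VITRO embryos came from oocytes of slaughterhouse ovaries that were matured, fertilized and cultured in vitro. IFOT-M embryos came from such oocytes that were matured in vitro and then placed into a preovulatory follicle of a heifer, where ovulation, fertilization by insemination and development followed in vivo. IFOT-IM embryos came from immature oocytes of the same kind of source that were placed into a dominant follicle, so that maturation took place in vivo as well. VIVO embryos, the control, were flushed from superovulated Simmental heifers after insemination. One sire was used for all 4 groups, while the dams of the VIVO embryos differed from the slaughterhouse animals that gave the other oocytes. Each group had 3 arrays, each made from 15 ng of total RNA of a separate pool of expanded blastocysts. Per the study's methods an IFOT pool can hold an embryo from the recipient's own oocyte. Each value is an average over all the cells of a pool, so fewer cells of a type and less RNA per cell cannot be told apart.

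In mammals DNMT1 copies methylation onto the new DNA strand at replication, and UHRF1 recognizes the hemimethylated site and brings DNMT1 to it. DNMT3A and DNMT3B place methyl groups on unmethylated DNA, while the TET enzymes oxidize methylcytosine and the glycosylase TDG cuts out the oxidized bases. Between fertilization and the blastocyst stage most of the methylation of the gametes is erased, imprinted regions are spared, and de novo methylation begins again.

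The deposited values are RMA signals taken to be on a log2 scale, and a difference of 1 on this scale is a 2-fold change. Over an array their median was 1.95 to 1.97 in VITRO, 1.84 to 1.86 in IFOT-M and 1.86 to 1.93 in IFOT-IM, against 1.75 to 1.78 in VIVO. The spread over an array ran the other way, with an SD of 1.50 to 1.54, 1.65 to 1.68, 1.55 to 1.64 and 1.73 to 1.75 in the same order of groups. Within IFOT-IM, replicate 1 had the lowest SD, 1.55. High signals were therefore lower in VITRO as a class. Among the decile of probe sets with the highest mean the median difference of VITRO from VIVO was -0.66, while over all probe sets tested it was 0.13. DNMT3A, DNMT3B and TET1 belonged to that decile. For this reason each call below was repeated after the arrays had been renormalized by quantiles or by cyclic loess. Of the blastocyst markers, 7 of 13 trophectoderm genes, 2 of 9 epiblast genes and 3 of 11 hypoblast genes ranked in the highest decile of all probe sets, among them GATA3, SOX2 and GATA6. On average the trophectoderm genes ELF5 and TFAP2A and the epiblast genes NODAL, KLF17 and LEFTY2 lay below the array median. The hypoblast genes SOX17, GATA4 and AFP did so as well. The summed level of the trophectoderm genes was 51.8 to 55.2 in VITRO, 56.5 to 56.7 in IFOT-M and 53.8 to 56.4 in IFOT-IM, against 58.0 to 60.8 in VIVO. For the epiblast genes the VITRO arrays summed to 26.9 to 28.7 and the VIVO arrays to 29.5 to 30.2. IFOT-M, at 30.1 to 31.0, and IFOT-IM, at 30.2 to 31.0, reached above VIVO. For the hypoblast genes the sums were 38.0 to 39.0 on VITRO arrays and 40.5 to 40.9 on VIVO arrays, with 38.5 to 40.4 in IFOT-M and 39.7 to 40.8 in IFOT-IM. Within the epiblast list NANOG went the other way and was higher in VITRO than in VIVO by 1.12 (FDR = 0.000648). Within the hypoblast list GATA4 was higher in VITRO than in VIVO by 0.38 (FDR = 0.0609). The part of such shifts in the results below was not tested.

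VITRO embryos had lower levels of 6 of the 10 genes than VIVO embryos, and none was higher. The 6 were DNMT1, DNMT3A, DNMT3B, TET1, MBD3 and ZFP57 (limma, FDR below 0.1). Of all probe sets tested, 47.8% were called in this comparison and 22.7% were lower. The median difference over the 10 genes was -0.56. For the same 6 genes all 3 VITRO arrays lay below all 3 VIVO arrays, which was so for 23.2% of probe sets. At a fold change above 2, the study's limit for a DEG, 1 gene was left, DNMT3A, against 7.51% of probe sets. IFOT-M embryos had 1 of the 10 genes lower than VIVO embryos, DNMT1, where 10.1% of all probe sets were called and 6.87% were lower. IFOT-IM embryos had 3 genes lower, DNMT1, DNMT3A and TET1, where 20.6% were called and 12.6% were lower. The median difference over the 10 genes was -0.01 in IFOT-M and -0.25 in IFOT-IM, against 0.05 and 0.08 over all probe sets tested. The 3 comparisons share the VIVO arrays.

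**Figure D1:**
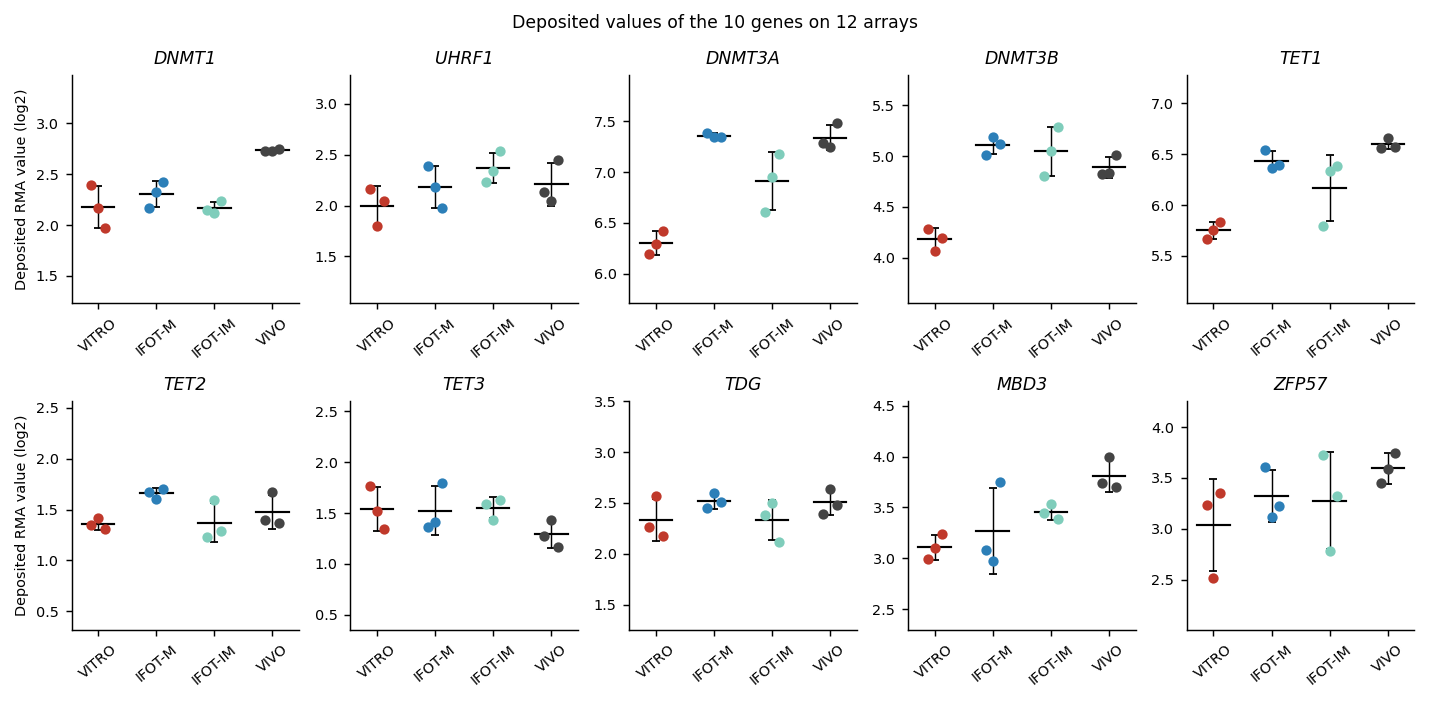
Deposited RMA values on the log2 scale (y axis, every panel spanning the same range) of the 10 genes on each array of VITRO, IFOT-M, IFOT-IM and VIVO embryos. Points are arrays, the long bar is the mean and the whisker is 1 SD (n = 3). DNMT1 stood at 2.73 or 2.74 on every VIVO array, above the 9 others, while DNMT3A, DNMT3B and TET1 had their lowest means in VITRO.

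DNMT1 was the only gene of the set called as lower than in VIVO in each of the other 3 groups. TET1 also had the arrays of all 3 groups below those of VIVO, though in IFOT-M it was not called, at -0.16 (FDR = 0.596). The means of MBD3, on the brighter of its probe sets only, and of ZFP57 were below that of VIVO in all 3 groups as well. The signals of DNMT1 (probe set 12883086) were 2.39, 2.17 and 1.97 in VITRO, 2.17, 2.33 and 2.42 in IFOT-M, 2.15, 2.12 and 2.24 in IFOT-IM, and 2.73, 2.73 and 2.74 in VIVO. The 9 arrays of embryos from slaughterhouse oocytes all lay below the 3 VIVO arrays and overlapped among themselves. The share of all probe sets with calls or arrays below VIVO in all 3 groups was not counted. These comparisons share the VIVO arrays. The difference of DNMT1 from VIVO was -0.56 in VITRO (SE 0.13, FDR = 0.00517), which is 1.47-fold lower. It was -0.43 in IFOT-M (FDR = 0.0683) and -0.57 in IFOT-IM (FDR = 0.0116). Between the other groups DNMT1 differed by -0.13 for VITRO minus IFOT-M, with a 95% interval of -0.40 to 0.15, and by 0.01 for VITRO minus IFOT-IM, with an interval of -0.27 to 0.29. The calls in VITRO and IFOT-IM held in all 24 alternatives. The call in IFOT-M was lost in 8 of 24, among them leaving out any IFOT-M or any VIVO array, where the FDR reached 0.213. DNMT1 belonged to a middle decile of probe sets by mean level, whose median difference of VITRO from VIVO was 0.18.

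UHRF1, the partner that guides DNMT1 to replicated DNA, had no call in any comparison. Its group means were 2.0 ± 0.19 in VITRO, 2.18 ± 0.21 in IFOT-M, 2.37 ± 0.15 for IFOT-IM and 2.21 ± 0.21 in VIVO (SD, n = 3). The difference of VITRO from VIVO was -0.21 with a 95% interval of -0.55 to 0.13. VITRO and IFOT-IM did not overlap, with a difference of -0.37 (FDR = 0.200). The 2 maintenance genes did not follow each other across the arrays, with a Pearson correlation of 0.03 over the 12 arrays. UHRF1 averaged 2.19 and lay below the array median on 1 array, and whether it exceeded background was not tested.

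DNMT3A, a de novo methyltransferase that also sets imprints in mouse germ cells, had the largest difference of the 10 genes in the deposited values. After cyclic loess its largest difference was -0.61 for VITRO minus IFOT-M, and DNMT1 stood at -0.64 for VITRO minus VIVO. Its signals (12698749) were 6.19, 6.29 and 6.42 in VITRO, 7.38, 7.34 and 7.34 in IFOT-M, 6.61, 6.96 and 7.18 in IFOT-IM, and 7.29, 7.25 and 7.48 in VIVO. The VITRO arrays lay below all 9 others, the IFOT-M arrays fell among those of VIVO, and the IFOT-IM arrays lay between VITRO and IFOT-M. VITRO was 2.05-fold lower than VIVO (log2 difference -1.04, SE 0.15, FDR = 0.000246). It was 2.08-fold lower than IFOT-M (-1.05, FDR = 0.00142) and 1.53-fold lower than IFOT-IM (-0.61, FDR = 0.0332). IFOT-M differed from VIVO by 0.02, with a 95% interval of -0.30 to 0.33. The difference of IFOT-IM from VIVO was -0.43 (FDR = 0.0731). This call was lost without IFOT-IM replicate 1, at -0.27 (FDR = 0.248), without IFOT-IM replicate 2, at -0.45 (FDR = 0.113), and without any VIVO array, at -0.35 to -0.47.

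DNMT3B, the second de novo enzyme, was lower in VITRO than in any other group in the deposited values. Its call against VIVO was lost after quantile normalization and after cyclic loess. Its signals (12713920) were 4.28, 4.07 and 4.19 in VITRO, 5.01, 5.19 and 5.12 in IFOT-M, 4.80, 5.05 and 5.28 in IFOT-IM, and 4.82, 4.84 and 5.01 in VIVO. No VITRO array reached the level of any other array, and the IFOT-M arrays lay above those of VIVO. VITRO was 1.63-fold lower than VIVO (-0.71, SE 0.14, FDR = 0.00189), 1.90-fold lower than IFOT-M (-0.92, FDR = 0.00183) and 1.82-fold lower than IFOT-IM (-0.87, FDR = 0.00562). IFOT-M and IFOT-IM differed from VIVO by 0.22 (FDR = 0.416) and 0.16 (FDR = 0.473).

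**Figure D2:**
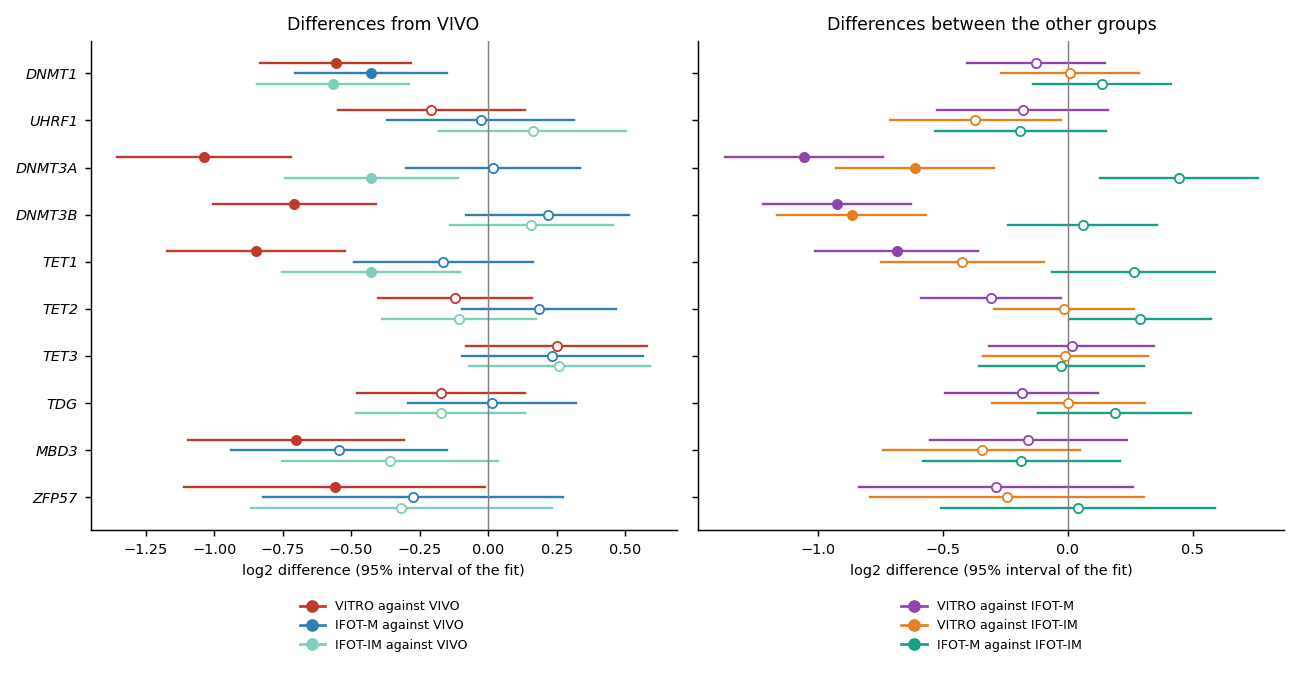
Log2 differences of the 10 genes (x axis) with the 95% interval of the fit. Left, VITRO, IFOT-M and IFOT-IM minus VIVO. Right, VITRO minus IFOT-M, VITRO minus IFOT-IM and IFOT-M minus IFOT-IM. Filled points passed an FDR of 0.1 over all probe sets tested and open points did not. DNMT1 is filled in all 3 comparisons with VIVO, and DNMT3A and DNMT3B in both comparisons of VITRO with an IFOT group.

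TET1, which is active in pluripotent cells of the mouse, was lower in VITRO than in IFOT-M and VIVO in the deposited values, and both calls were lost after cyclic loess. Its signals (12826200) were 5.66, 5.75 and 5.84 in VITRO, 6.54, 6.37 and 6.40 in IFOT-M, 5.80, 6.33 and 6.39 in IFOT-IM, and 6.56, 6.66 and 6.58 in VIVO. The VITRO arrays were below those of IFOT-M and VIVO, and IFOT-IM replicate 1 fell among the VITRO values. VITRO was 1.80-fold lower than VIVO (-0.85, SE 0.15, FDR = 0.00107) and 1.61-fold lower than IFOT-M (-0.68, FDR = 0.0117). The difference from IFOT-M was not called after quantile normalization, at -0.31 (FDR = 0.122), or after cyclic loess, at -0.22 (FDR = 0.245). Against IFOT-IM the difference was -0.42 (FDR = 0.132), and without IFOT-IM replicate 1 it was -0.61 (FDR = 0.0139). IFOT-IM was lower than VIVO, at -0.43 (FDR = 0.0799), which became -0.24 (FDR = 0.259) without the same array. That call was also lost without IFOT-M replicate 2 or 3, where the difference stayed at -0.43, and without any VIVO array, at -0.40 to -0.44.

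TET2 and TET3 lay below the array median on all 12 arrays, and whether they exceeded background was not tested. TET2 averaged 1.36 ± 0.05 in VITRO, 1.66 ± 0.05 in IFOT-M, 1.37 ± 0.19 for IFOT-IM and 1.48 ± 0.17 in VIVO (SD, n = 3). The IFOT-M arrays were above those of VITRO and IFOT-IM, with differences of -0.31 for VITRO minus IFOT-M (FDR = 0.134) and 0.29 for IFOT-M minus IFOT-IM (FDR = 0.654). TET3, the enzyme that acts on the paternal genome in the mouse zygote, averaged 1.54 in VITRO, 1.52 for IFOT-M and 1.55 for IFOT-IM, against 1.29 in VIVO. These differences of 0.23 to 0.26 from VIVO were not called, nor were those of its second probe set, 0.14, 0.05 and 0.19. TDG, the glycosylase downstream of the TET enzymes, differed from VIVO by -0.17 for VITRO, 0.01 for IFOT-M and -0.17 for IFOT-IM. The 95% interval of the VITRO difference was -0.48 to 0.14. TDG averaged 2.42 over the 12 arrays, and whether it exceeded background was not tested either.

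MBD3, a subunit of the NuRD complex that has the fold of a methyl-CpG binding domain, gave different answers from its 2 probe sets. On the brighter one (12881807) its signals were 2.99, 3.11 and 3.24 in VITRO, 3.08, 2.97 and 3.75 in IFOT-M, 3.44, 3.54 and 3.38 in IFOT-IM, and 3.74, 4.0 and 3.70 in VIVO. VITRO and IFOT-IM lay below VIVO, and IFOT-M replicate 3 reached the VIVO range while the other IFOT-M arrays did not. The difference from VIVO was -0.70 in VITRO (SE 0.18, FDR = 0.0101), -0.54 in IFOT-M (FDR = 0.103) and -0.36 in IFOT-IM (FDR = 0.214). Without IFOT-M replicate 3 the IFOT-M difference was -0.79 (FDR = 0.0165). On the second probe set (12883014) VITRO minus VIVO was 0.26 (FDR = 0.319), and for the mean of both it was -0.22 (FDR = 0.198). The direction for MBD3 thus depends on the probe set.

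ZFP57, which in the mouse and in humans keeps imprinted regions methylated, was at the edge of the threshold. Its signals (12803975) were 3.23, 2.52 and 3.36 in VITRO, 3.61, 3.12 and 3.23 in IFOT-M, 3.73, 2.79 and 3.32 in IFOT-IM, and 3.45, 3.59 and 3.75 in VIVO. VITRO replicate 2 was far below the rest of its group, and 1 IFOT-IM array was low as well. VITRO minus VIVO was -0.56 (SE 0.25, FDR = 0.0970), and -0.30 (FDR = 0.342) without VITRO replicate 2. The call was lost in 12 of 24 alternatives. The differences of IFOT-M and IFOT-IM from VIVO, -0.27 and -0.32, were not called.

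The direct comparisons asked whether VITRO embryos differed from embryos that had passed part of their development in a heifer. Against IFOT-M, 3 of the 10 genes were lower in VITRO, DNMT3A, DNMT3B and TET1, where 21.3% of all probe sets were called and 12.9% were lower. Against IFOT-IM, 2 were lower, DNMT3A and DNMT3B, where 8.67% were called and 5.86% were lower. The median difference over the 10 genes was -0.24 and -0.29, against 0.06 and 0.03 over all probe sets tested. Between IFOT-M and IFOT-IM no member was called at an FDR of 0.1 by limma, with 0% of all probe sets, and an unmoderated linear model also called none. At an unadjusted p below 0.05 there were 2 of the 10 genes and 1855 of all probe sets. The 2 were DNMT3A and TET2, both higher in IFOT-M on all arrays, as were 7.54% of probe sets. DNMT3A differed by 0.44 with a 95% interval of 0.13 to 0.76 (FDR = 0.654).

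The calls were then repeated on arrays renormalized by quantiles or by cyclic loess. Quantile normalization gives the arrays a common distribution, and cyclic loess evens out trends with signal level between arrays. DNMT1 stayed lower in VITRO than in VIVO, at -0.60 (FDR = 0.00698) after quantile normalization and -0.64 (FDR = 0.00340) after cyclic loess. DNMT3A stayed lower too, at -0.63 (FDR = 0.00206) and -0.38 (FDR = 0.0249). TET1 was -0.35 (FDR = 0.0492) after quantile normalization and -0.16 (FDR = 0.323) after cyclic loess. MBD3 and ZFP57 were no longer called, while TET2 was, at -0.35 (FDR = 0.0756) and -0.37 (FDR = 0.0659). In all, 4 genes were called after quantile normalization, 3 of them among the first 6, and 3 after cyclic loess, 2 of them among the first 6. The background in VITRO against VIVO was 29.4% and 28.4% of all probe sets. In VITRO against IFOT-M both scalings called 3 genes, as in the deposited values, but TET2 took the place of TET1, at -0.44 (FDR = 0.0580) and -0.45 (FDR = 0.0605). Of all probe sets 13.3% and 11% were called there, against 21.3% as deposited.

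For DNMT3B the order of the groups changed with the scaling. After quantile normalization its values were 4.61, 4.29 and 4.42 in VITRO, 4.91, 5.14 and 5.06 in IFOT-M, 5.01, 5.03 and 5.26 in IFOT-IM, and 4.58, 4.59 and 4.72 in VIVO. VITRO then overlapped VIVO, and all 6 IFOT arrays stood above both. The difference of VITRO from VIVO was -0.19 (FDR = 0.307), and -0.05 (FDR = 0.808) after cyclic loess. IFOT-IM was higher than VIVO by 0.47 (FDR = 0.0366) and 0.52 (FDR = 0.0195), and IFOT-M by 0.45 (FDR = 0.0568) after cyclic loess. The lower level of DNMT3B in VITRO than in either IFOT group held in all 24 alternatives at an FDR below 0.1. Against IFOT-IM the FDR reached 0.0825. Under cyclic loess it was -0.50 against IFOT-M (FDR = 0.0358) and -0.58 against IFOT-IM (FDR = 0.0356). DNMT3A was likewise lower in VITRO than in IFOT-M in all 24 alternatives, at -0.76 (FDR = 0.00286) and -0.61 (FDR = 0.00797) under the 2 scalings. Against IFOT-IM its call was lost after cyclic loess, at -0.34 (FDR = 0.119), and without IFOT-IM replicate 2 or 3. The differences of DNMT3A and TET1 between IFOT-IM and VIVO were not called under either scaling, at -0.19 and -0.04 for DNMT3A.

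**Figure D3:**
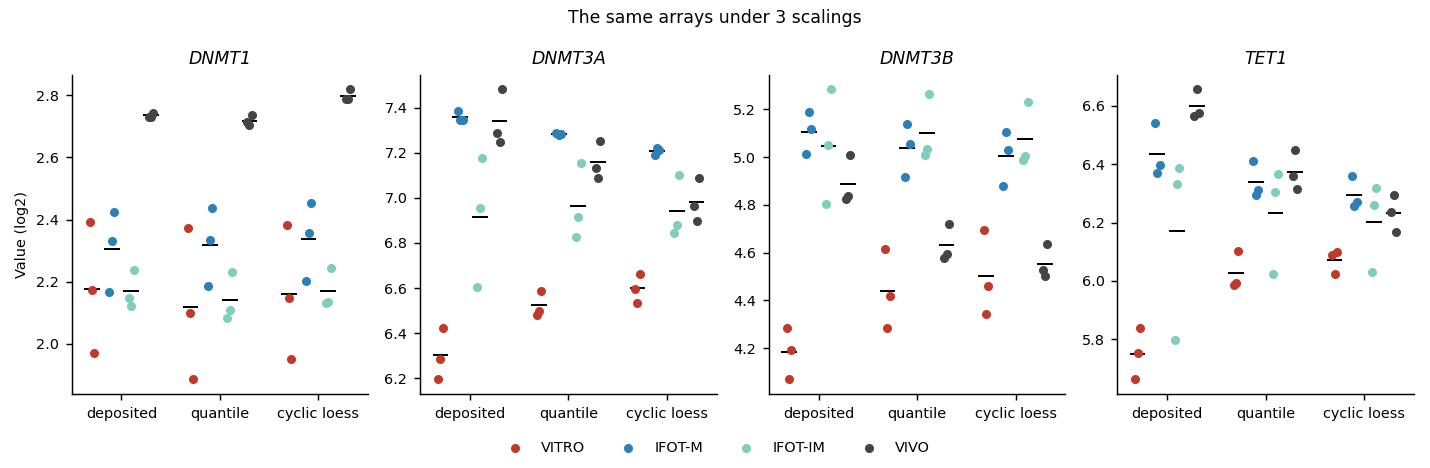
Values of DNMT1, DNMT3A, DNMT3B and TET1 (y axis, log2) on the arrays of VITRO, IFOT-M, IFOT-IM and VIVO embryos as deposited, after quantile normalization and after cyclic loess. Points are arrays and bars are group means (n = 3). The VIVO arrays of DNMT1 stay above all others in each scaling, whereas for DNMT3B the VITRO mean moves up to 4.44 and 4.50 and the VIVO mean down to 4.63 and 4.55, against 4.18 and 4.89 as deposited.

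Most partners of the methyltransferases were lower in VITRO as well. Of 26 partners measured, 19 were lower and 3 were higher than in VIVO, with a median difference of -0.61, against 22.7% and 25.1% of all probe sets and a median of 0.13. The lowest p-values belonged to CBX3, a heterochromatin protein that binds methylated histones, at -1.63 (FDR = 1.86e-05), and to HELLS, a chromatin remodeler needed for normal DNA methylation in the mouse, at -1.41 (FDR = 1.95e-05). USP7, a deubiquitinase that binds DNMT1 and UHRF1, was at -1.14, and EED, a subunit of the Polycomb repressive complex, at -1.27. HELLS averaged 3.44 ± 0.05 in VITRO, 4.24 ± 0.20 for IFOT-M, 4.04 ± 0.08 for IFOT-IM and 4.85 ± 0.12 in VIVO (SD, n = 3), and no VIVO array overlapped another group. In IFOT-M 4 partners were lower than in VIVO, CBX3 at -0.72, HELLS at -0.61, EED at -0.58 and PCNA, the sliding clamp of replication, at -0.56. In IFOT-IM 11 were lower. Of all probe sets 6.87% were lower in IFOT-M and 12.6% in IFOT-IM. After quantile normalization 13 partners were lower and 1 was higher in VITRO, with a median of -0.38, and after cyclic loess 12 and 1, with a median of -0.31. Of these lower partners 12 and 11 were among the 19. Of the 24417 probe sets tested 4043 were lower and 3145 higher in VITRO than in VIVO after quantile normalization. After cyclic loess 3612 were lower and 3317 higher. These counts are also the background of the lists below for VITRO against VIVO under the same scalings. In IFOT-M 1 and 3 of the 4 kept their call, CBX3 under both, while CTCF, an insulator protein, and KDM1A, a histone demethylase, were newly called as higher. In IFOT-IM 5 and 6 of the 11 kept their call. CBX3, HELLS, USP7 and EED stayed lower under both. Of the 26 partners 12 belonged to the 2 highest deciles by mean level, 8 of them to the highest. The median difference of VITRO from VIVO was -0.66 in the highest decile and -0.56 in the one below it.

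Among 9 methyl-CpG binding proteins 3 were lower in VITRO and none was higher, against 22.7% and 25.1% of all probe sets. Their median difference was -0.08, and -0.29 and -0.32 after quantile normalization and cyclic loess, where UHRF2 joined the 3. ZBTB33, or Kaiso, which binds methylated CpG through zinc fingers, was lower, at -1.32 in VITRO (FDR = 3.06e-05), -0.59 for IFOT-M (FDR = 0.0195) and -0.85 for IFOT-IM (FDR = 0.00128). It averaged 2.14 ± 0.04 in VITRO, 2.87 ± 0.16 for IFOT-M, 2.60 ± 0.20 for IFOT-IM and 3.46 ± 0.05 in VIVO (SD, n = 3). Its difference in VITRO was -1.26 and -1.23 under the 2 other scalings. MBD4, a glycosylase for mismatches at methylated sites, was at -0.58 in VITRO and -0.37 in IFOT-IM, and MBD2, which NuRD contains, at -0.52 in VITRO. The MBD4 call in IFOT-IM was lost under both scalings. Of 13 other subunits of NuRD, a complex that joins nucleosome remodeling with histone deacetylation, 9 were lower in VITRO and none was higher, with a median of -0.58 and 5 of the 13 in the highest decile by mean level. The median was -0.10 and -0.05 under the 2 other scalings. MBD2 is counted in both lists. HDAC2, HDAC1, CHD4 and RBBP7 were at -0.99, -0.73, -0.58 and -0.74. Only 4 and 3 of the 9 kept their call after quantile normalization and cyclic loess, HDAC2 among them at -0.71 and -0.64, while CHD4 was at 0.00 and 0.10. HDAC2 was the single NuRD gene lower in IFOT-M, at -0.70, where 6.87% of all probe sets were lower. In IFOT-IM, where 12.6% were lower, HDAC2 was lower, at -0.58, together with CHD4, HDAC1, MTA3 and RBBP7. None of the 5 was called in IFOT-IM under either scaling, with list medians of -0.04 and 0.01, and HDAC2 in IFOT-M was called after cyclic loess only, at -0.57 (FDR = 0.0390).

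Of 21 genes of base excision repair and the GADD45 family 10 were lower and 1 was higher in VITRO than in VIVO, against 22.7% and 25.1% of all probe sets. Their median was -0.30, and -0.04 and -0.08 under the 2 scalings. Of the 21 genes 8 belonged to the 2 highest deciles by mean level, whose median differences of VITRO from VIVO were -0.56 and -0.66. GADD45A, a stress-response protein that has been tied to DNA demethylation, was lowest, at -1.49 in VITRO (FDR = 5.85e-05), -0.73 in IFOT-M (FDR = 0.0221) and -1.12 in IFOT-IM (FDR = 0.00112). Its difference in VITRO was -0.99 and -0.87 under the other scalings. APEX2, an endonuclease, was at -0.88 in VITRO and -0.45 in IFOT-IM, and PARP1, a sensor of strand breaks, at -0.87 in VITRO. The ligase gene LIG1 was higher in IFOT-IM, by 0.49 (FDR = 0.0767). Of 16 cofactor genes and partners of the TET enzymes 10 were lower and 2 were higher in VITRO, against the same shares of all probe sets. Their median was -0.46, and -0.26 and -0.12 under the 2 scalings. Of the 16 genes 7 belonged to the same 2 deciles. SDHB and SDHA, subunits of the succinate dehydrogenase that removes a TET inhibitor, were at -1.12 and -0.72, OGT, a sugar transferase that binds TET proteins, at -0.89, and CXXC1, which binds unmethylated CpG, at -0.90. SDHD was the single gene of this list lower in IFOT-M, at -0.61, where 6.87% of all probe sets were lower. In IFOT-IM, where 12.6% were lower, SDHD was lower with OGT, CXXC1 and FH. None of these calls in IFOT-M and IFOT-IM was kept under either scaling, where IDH1 was newly called as higher in IFOT-M under both and, after cyclic loess, IDH1 and SALL4 in IFOT-IM. In VITRO 7 and 3 of the 10 repair genes, and 5 and 3 of the 10 genes tied to TET, kept their call after quantile normalization and cyclic loess. OGT, SDHB and CXXC1 were among them under both scalings, and SDHA under neither. The APEX2 call in IFOT-IM was lost under both.

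In the direct comparisons of VITRO with the IFOT groups 12.9% of all probe sets were lower against IFOT-M and 5.86% against IFOT-IM, fewer than the 22.7% against VIVO, and the counts of the lists were smaller as well. Against IFOT-M 13 of 26 partners were lower in VITRO and against IFOT-IM 8, and 9 and 3 of these kept their call after cyclic loess. Among the 16 TET cofactors and partners 6 were lower against IFOT-M and 5 against IFOT-IM, of which 5 and 3 kept their call. SALL4, an embryonic zinc finger factor, was at -0.79 against IFOT-M (FDR = 0.00420) and -0.75 against IFOT-IM (FDR = 0.0123). IDH1, an enzyme that makes the TET cosubstrate, was at -0.98 and -0.61, and SDHB at -1.01 and -0.89. OGT and SDHA were lower against both as well, though SDHA was called under neither of the other scalings and OGT against IFOT-IM not after cyclic loess. ZBTB33 was the single methyl-CpG binding protein, at -0.73 and -0.46, the second of which was not called after cyclic loess. Of the 13 NuRD genes 6 were lower against IFOT-M and 2 against IFOT-IM, HDAC1 at -0.41 and MTA2 at -0.53, and after cyclic loess 1 and 0 of these kept their call. Among the 21 repair genes 6 were lower and 1 was higher against IFOT-M, and 2 were lower against IFOT-IM, PARP1 at -0.76 and LIG1 at -0.55. Of these 3 and 1 kept the lower call after cyclic loess, PARP1 in both comparisons.

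The folate and methionine cycles supply the methyl donor. Of 32 genes 12 were lower and 6 were higher in VITRO, which is 37.5% and 18.8%, against 22.7% and 25.1% of all probe sets. Their median was -0.14 and turned to 0.02 and 0.03 under the other scalings, each of which kept 6 of the 12 lower calls and 1 of the 6 higher. DLD, a subunit shared by the glycine cleavage system and other mitochondrial complexes, was lower in all 3 groups, at -1.59 for VITRO, -1.31 for IFOT-M and -1.63 for IFOT-IM. MTHFD1L, the mitochondrial formate producer, was also lower in all 3, at -1.32, -1.19 and -1.45 in the same order, and its VITRO and IFOT-M arrays overlapped. GNMT, which consumes the methyl donor, was at -1.53 for VITRO, -0.65 for IFOT-M and -1.18 for IFOT-IM, and SRM, the spermidine synthase, at -1.63, -0.70 and -0.79. Each of these calls for VITRO was kept under both scalings. Directly against IFOT-IM 2 genes were lower in VITRO, SRM at -0.84 and AHCYL2 at -0.41, and NNMT, which methylates nicotinamide, was higher, at 0.53. AHCYL2 was not called under either scaling.

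Genes that DNA methylation silences outside the germ line in the mouse had calls in both directions, in shares near those of all probe sets. Of 39 such genes listed 35 had a probe set and 30 were tested, of which 5 were lower and 9 were higher in VITRO than in VIVO. These are 16.7% and 30.0%, against 22.7% and 25.1% of all probe sets. The median was 0.20 and turned to -0.01 under both scalings, where the same 5 were lower and 3 were higher, 2 of them among the 9. Of the 30 tested, 21 lay in the 5 lowest deciles by mean level. GTSF1, a piRNA pathway protein, was lower, at -1.84 for VITRO, -0.73 for IFOT-M and -1.26 for IFOT-IM. SYCE1, a protein of the synaptonemal complex, was higher in VITRO by 1.01 (FDR = 0.000316), with 2.97 ± 0.17 in VITRO, 2.36 ± 0.12 for IFOT-M, 2.26 ± 0.25 for IFOT-IM and 1.96 ± 0.10 in VIVO (SD, n = 3). TDRD1 and TEX12 were lower in VITRO, at -0.66 and -0.51. DPPA4, an early embryo gene, was higher than in VIVO by 1.01 in IFOT-M (FDR = 0.00112) and by 0.88 in IFOT-IM (FDR = 0.00115), and in VITRO it differed by 0.27 (FDR = 0.116) and was called as higher under both other scalings. TDRD1 and MGARP were lower in IFOT-M, at -0.71 and -0.54, the second not under either scaling, and GTSF1 in IFOT-M was not called after quantile normalization. Directly against IFOT-M, SYCE1 (0.61) and FKBP6 (0.36) were higher in VITRO, and GTSF1 (-1.10) and DPPA4 (-0.74) were lower. Against IFOT-IM, SYCE1 (0.72) was higher and DPPA4 (-0.61) was lower. After cyclic loess SYCE1 kept both calls and GTSF1 its own, while FKBP6 and DPPA4 were not called.

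**Figure D4:**
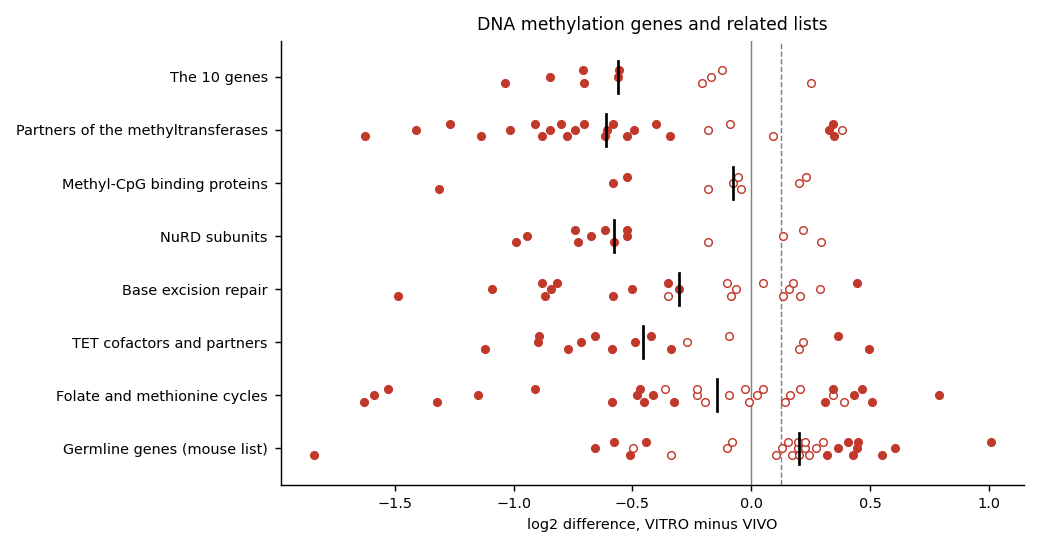
Log2 differences of VITRO minus VIVO (x axis) for the 10 genes and 7 related gene lists, 1 point per gene. Filled points passed an FDR of 0.1, open points did not, the vertical tick is the median of a list and the dashed line is the median of all probe sets tested, 0.13. The medians of the 10 genes, of the partners and of NuRD lie between -0.56 and -0.61 in these deposited values, and those of the partners and of NuRD are -0.31 and -0.05 after cyclic loess.

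Across the 12 arrays DNMT3A and TET1 followed each other most closely among the 10 genes, with a Pearson correlation of 0.955, followed by DNMT3A with DNMT3B at 0.859. The lowest value was -0.446, for TET1 with TET3. These values describe 12 arrays in 4 groups, and they share each array's spread. The probe sets most like DNMT3A were TRIM24 (0.983) and PSMD2 (0.981), those most like TET1 were SELENOT (0.985) and HDAC1 (0.985), and those most like DNMT3B were ZMYND19 (0.970) and TSPYL1 (0.963). For DNMT1 they were LRP10 (0.966) and ARL3 (0.962), for MBD3 LTN1 (0.936) and TMEM265 (0.905), and for ZFP57 GTF2F1 (0.890) and DCAF6 (0.876).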

How the data were processed

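RNA of 12 blastocyst pools, 3 in each of 4 groups, was hybridized to Affymetrix Bovine Gene ST arrays. The authors corrected the background and normalized and summarized the probes by RMA in Expression Console, and the deposited values were read as log2 because of their range. Quantile normalization of all arrays together leaves nearly equal distributions, which these arrays did not have, and how the step was run is not given in the sources used here. Genes were named from GEO's platform annotation, in which 18457 probe sets had 1 symbol, 688 had several and 7628 had none. The symbols of all 10 genes are also in RefSeq's gene table for cattle. No coordinates or sequences are printed, since no genome of the array's build was used here.

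Probe sets in the lowest 8.8% by mean over the arrays were left out, close to the share in the study's methods, and 24417 were tested, 17553 of them with 1 symbol. One linear model for the 4 groups was fitted in limma 3.58.1 under R 4.3.3 (lmFit, contrasts.fit and eBayes, 8 residual degrees of freedom). All tests were two-sided, with Benjamini-Hochberg FDR values over all probe sets tested. A gene was called at an FDR below 0.1, and a DEG also needed a fold change above 2 and a p below 0.05. SE values are those of the fit. The fit was tested on simulated data. The pools are biological replicates per the labels, and their number limits the precision of every value.

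Alternatives were quantile and cyclic loess normalization, no filter, only the probe sets above the median level, only the 2 groups compared, unmoderated and robust variances, array weights, RIN (RNA integrity, matched by group and replicate number) as a covariate, a block for the replicate number, an FDR below 0.05, other rules for probe sets, and leaving out each array. Named in the text are all 10 genes, up to 4 genes of each list with the lowest p in VITRO against VIVO, genes of a list with at most 5 calls in a comparison, and the 2 probe sets most like each gene called. DPPA4 values in IFOT-IM and the IFOT values of genes named for VITRO are given beside them. The genes, lists and tests were chosen with earlier results of these data known. Raw intensities were not analysed here.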

Additional observations from a re-analysis of the deposited data

Results flagged for a closer look

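The differences of VITRO and the IFOT groups from VIVO themselves differed for 3 genes, as tested by the direct contrast in limma. DNMT3A was lower in VITRO than in IFOT-M, at -1.05 (FDR = 0.00142) and than in IFOT-IM, at -0.61 (FDR = 0.0332). DNMT3B was lower in VITRO than in IFOT-M, at -0.92 (FDR = 0.00183) and than in IFOT-IM, at -0.87 (FDR = 0.00562). TET1 was lower in VITRO than in IFOT-M, at -0.68 (FDR = 0.0117), but not called after quantile normalization (-0.31, FDR = 0.122) or cyclic loess (-0.22, FDR = 0.245). The call of DNMT3A against IFOT-IM was lost after cyclic loess, at -0.34 (FDR = 0.119). In the decile of probe sets with the highest mean, to which the 3 genes belong, the median difference of VITRO was -0.44 from IFOT-M and -0.26 from IFOT-IM.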

How the results depend on the processing

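No result turned round in direction beyond its threshold. The number of the 10 genes called in VITRO against VIVO was 6, and 3 after cyclic loess, 1 at a fold change above 2 and 5 to 6 with single arrays left out. In IFOT-M against VIVO it was 1, and 0 after quantile normalization, at an FDR below 0.05 and at a fold change above 2. There it was 2 after cyclic loess, among the probe sets above the median level, with array weights, with RIN as a covariate and with 1 probe set per symbol, and 0 to 1 with single arrays left out. The 2 after cyclic loess were DNMT1, lower, and DNMT3B, higher. In IFOT-IM against VIVO it was 3, and 1 in a fit of only the 2 groups or at an FDR below 0.05, 0 at a fold change above 2, and 1 to 3 with single arrays left out. Its count of 1 came without IFOT-IM replicate 1 or without any VIVO array. After quantile normalization and after cyclic loess DNMT1 kept its call in this comparison and DNMT3A and TET1 lost theirs. DNMT3B was newly called as higher under both. In VITRO against IFOT-M it was 3, and 1 at a fold change above 2, with 3 each time an array was left out. Quantile normalization and cyclic loess also called 3 there, of which 2 were shared, DNMT3A and DNMT3B, and TET2 was called in place of TET1. Of all probe sets 13.3% and 11% were called under these scalings. In VITRO against IFOT-IM it was 2, and 1 after cyclic loess or in a fit of only the 2 groups, 0 at a fold change above 2, and 1 to 3 with single arrays left out, 1 without IFOT-IM replicate 2 or 3. The causes of these changes were not tested.

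With the replicate number as a block the calls against VIVO were 6 for VITRO, 0 for IFOT-M and 3 for IFOT-IM, as DNMT1 in IFOT-M moved to an FDR of 0.105. Over all probe sets the calls were 11599, 2346 and 4890 with the block, against 11662, 2461 and 5023 without it. The deviations of arrays with the same number had correlations of -0.08 to 0.12 over 18 pairs, 1 of them above 0.1, and those of arrays with different numbers -0.12 to 0.07 over 36 pairs. Of 12 arrays 8 correlated best with an array of their own number. The numbers were not taken as pairs, since not every pair was above 0.1 and no label ties them to a shared source.

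Scaling moved the share of lower calls among the probe sets called in a comparison. In VITRO against VIVO it was 47.4% as deposited, 56.2% after quantile normalization and 52.1% after cyclic loess. In IFOT-M against VIVO it was 68.2% as deposited, 60.5% after quantile normalization and 55.3% after cyclic loess. In VITRO against IFOT-M it was 60.7%, 55.9% and 49.0%, and in VITRO against IFOT-IM 67.6%, 57.2% and 48.4%. The median difference of VITRO from VIVO over all probe sets was 0.13, 0.00 and 0.01.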
